A study of Homo sapiens with 20 samples.

Results

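ELF3 and 9 other genes of the ETS family of transcription factors were followed through 10 RNA-seq libraries of TPC-1 cells. The 10 genes were chosen by name, from the ETS rows of the gene table, with the counts of these libraries already known, and ELF3 was chosen for its difference between the groups. They are ELF3, ELF1, ELF2, ELF4, EHF, ETS1, ETS2, ERG, FLI1 and SPDEF, 10 of 28 ETS genes in a table of 54261 genes. For these 10 genes the comparison of the groups is therefore a description, with no test, and nothing is read from how many of them passed a threshold.

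TPC-1 is a line from a human papillary thyroid carcinoma that carries a CCDC6-RET fusion, a kinase that drives the RAS-MAPK pathway. The coculture group held 6 libraries of TPC-1 cells kept for 48 h with PMN-MDSCs, which are immature cells of the neutrophil lineage able to suppress T cell responses. The control group held 4 libraries of TPC-1 cells kept for 48 h without them. All libraries came from this 1 line, and the labels name no separate cultures, so any p measures the spread between these libraries, which may be technical. The sources used here give neither the origin of the PMN-MDSCs nor the mode of coculture, nor whether the cells were parted before RNA was taken.

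ETS factors share a winged helix-turn-helix domain that binds DNA around a GGAA core. The family holds activators such as ETS1 and ETS2, whose activity ERK phosphorylation raises, epithelial members such as ELF3, EHF and SPDEF, and members of blood and endothelial cells such as SPI1, FLI1 and ERG. ELF3 is low in many resting cells, and interleukin 1, tumor necrosis factor and NF-kB are known to induce it.

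Library totals ran from 40237801 to 48197608 counts. Coculture 1 and 2 stood apart on the first principal component of all genes (39.3% of the variance), at -66.1 and -60.6 against 0.908 to 31.8 for the other 8 libraries, so values without them are given beside the results. Of all 15629 genes tested, 30.5% had coculture 1 and 2 both above coculture 3 to 6, and 29.9% had both below. Of the thyroid markers, PAX8, the lineage factor, was at 508 ± 11.2 CPM (counts scaled to library size; SD, n = 4) in controls, FOXE1 at 10.2 ± 0.921 and TG at 0.79 ± 0.509, while TSHR and NKX2-1 had no control count. Of the epithelial markers, KRT18 was at 350 ± 43.9 CPM and KRT8 at 240.2 ± 28.6, EPCAM at 0.114 ± 0.0684, and CDH1 (E-cadherin) had no control count. Of 15 leukocyte markers, 10 had counts in controls and 14 in coculture, and AIF1 was listed at 0 in every library. Their summed level was 14.8 to 15.3 CPM in controls and 50.6 to 75.9 CPM in coculture. In bulk RNA, fewer cells of a type and less RNA per cell cannot be told apart.

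ELF3, also called ESE-1 (chr1:202010519-202017188, plus strand, in the deposited coordinates, build GRCh38.p10 per the submitters' processing notes), was low in each control library and higher in each coculture library. The controls held 0.641, 1.11, 0.34 and 0.407 CPM, from 14 to 45 counts a library. Coculture 1 and 2 held 27.4 and 18.1 CPM, and coculture 3, 4, 5 and 6 held 2.43, 4.85, 4.25 and 6.12 CPM. The groups did not overlap, and the lowest coculture library lay above the highest control. Within coculture, the libraries 1 and 2 were far above the other 4. The means were 10.5 ± 9.98 CPM (SD, n = 6) and 0.625 ± 0.35 (n = 4), a log2 fold change of 4.07 ± 0.76 (SE). Without coculture 1 and 2, the log2 fold change was 2.81 ± 0.36. The summed leukocyte markers were 75.9 and 50.6 CPM in coculture 1 and 2, and 51.8 to 71.7 CPM in coculture 3 to 6. In controls this sum included LCP1 at a mean of 6.2 CPM and CORO1A at 6.57 CPM. Of the 12 markers tested, 1 had coculture 1 and 2 both above coculture 3 to 6, beside 30.5% of all genes. It was CORO1A, an actin regulator of leukocytes named here after its values were seen. CORO1A was at 14.4 and 12.2 CPM in coculture 1 and 2, 4.44 to 8.53 CPM in coculture 3 to 6 and 5.92 to 7.35 CPM in controls. The part of leukocyte RNA in the ELF3 difference was not tested.

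The promoter of ELF3 is shown because it holds a match to the NF-kB consensus, the letters that NF-kB dimers favour. Windows of 300 bases, 250 before and 50 after a RefSeq start (build GRCh38.p14), were matched by symbol for 8 of the 10 genes, in 18 windows. None was matched for ETS1 and FLI1. The stretch printed is chr1:202010337-202010516, plus strand, 5′ to 3′, and capitals mark the match at chr1:202010499-202010508, which reads as the consensus on the minus strand and begins at position -88 from the start.
ELF3: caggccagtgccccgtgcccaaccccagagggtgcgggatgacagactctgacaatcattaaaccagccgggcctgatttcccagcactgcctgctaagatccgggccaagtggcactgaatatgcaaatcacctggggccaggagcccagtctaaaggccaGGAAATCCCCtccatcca

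On either strand, this consensus was found in 11.3% of all 35116 promoter windows. Among the other genes it was found in 1 window of ERG, on the minus strand of the window, and in 1 window of ETS2, on both strands at the same bases, beginning at position 27 after a start. Both matches are shown with 10 bases on each side, for comparison with that of ELF3. The first lies at chr21:38660681-38660710 on the minus strand and the other at chr21:38805199-38805228 on the plus strand.
ERG: ggcgggagccGGAGCCTCCCtgaacccggc
ETS2: ctgcgggatcGGGGCTTCCCgggagcagcg

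The AP-1 letters TGACTCA, on either strand, occurred in 1 window of ELF4 and in 4.95% of all windows. The ETS letters CCGGAAGT occurred in none of the 18 windows and in 4.14% of all. A match is a description of the letters, not a site.

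ETS2 and ETS1, close relatives that bind as activators, differed between coculture 1 and 2 and the other coculture libraries. Of the 9 members tested, 5 (ETS2, ETS1, ELF1, ELF4 and ERG) had coculture 1 and 2 both below coculture 3 to 6, beside 29.9% of all genes. The other direction held for 2, ELF3 and FLI1, beside 30.5%. ETS2 (chr21:38805307-38824955, plus strand) was at 44.9, 59.8, 45.3 and 45.3 CPM in the controls. Coculture 1 and 2 held 39 and 41.5 CPM, below every control, and coculture 3 to 6 held 75.1 to 90.4 CPM, above every control. Over all libraries its log2 fold change was 0.46 ± 0.23 and the groups overlapped. Without coculture 1 and 2 it was 0.71 ± 0.10, and the groups did not overlap.

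ETS1 (chr11:128458761-128587593, minus strand) showed a like order with a smaller distance. The controls held 207, 263, 220.2 and 199 CPM, coculture 1 and 2 held 212 and 222 CPM, and coculture 3 to 6 held 270.4 to 300.2 CPM. The last 4 lay above the controls, while coculture 1 and 2 lay among them. The log2 fold change was 0.25 ± 0.12, and 0.36 ± 0.086 without coculture 1 and 2. A row on the other strand, LOC105369566, overlaps ETS1 with 1628 counts over the 10 libraries against 105666 for ETS1, and no source used here says whether strand was used in counting.

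Since ELF3 was chosen by its difference in this contrast, the following counts are a description. Of 10 genes, 9 passed the filter on low counts, and EHF did not. ELF3 was the 1 gene past an adjusted p of 0.05 in edgeR's quasi-likelihood test, where 1.14% of all 15629 genes tested were higher in coculture and 0.186% lower. It was also the 1 gene whose groups did not overlap, where this held for 2.45% of all genes in the higher and 1.17% in the lower direction. At an unadjusted p under 0.05, 0 members were lower, and DESeq2 and limma-voom also called 0 lower. Of all 15629 genes tested, 1509 were under this unadjusted p in either direction, to be set beside such counts of the lists below. ELF3 did not pass with no filter, with limma-voom, or without control 1, 3 or 4. Without coculture 1 and 2, ELF3, ETS2 and ETS1 were past the threshold, where 1.37% of the 15309 genes tested were higher and 0.732% lower. Those 2 libraries held the lowest coculture levels of ETS2 and ETS1, so the added calls rest on leaving them out and remain a description.

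**Figure D1:**
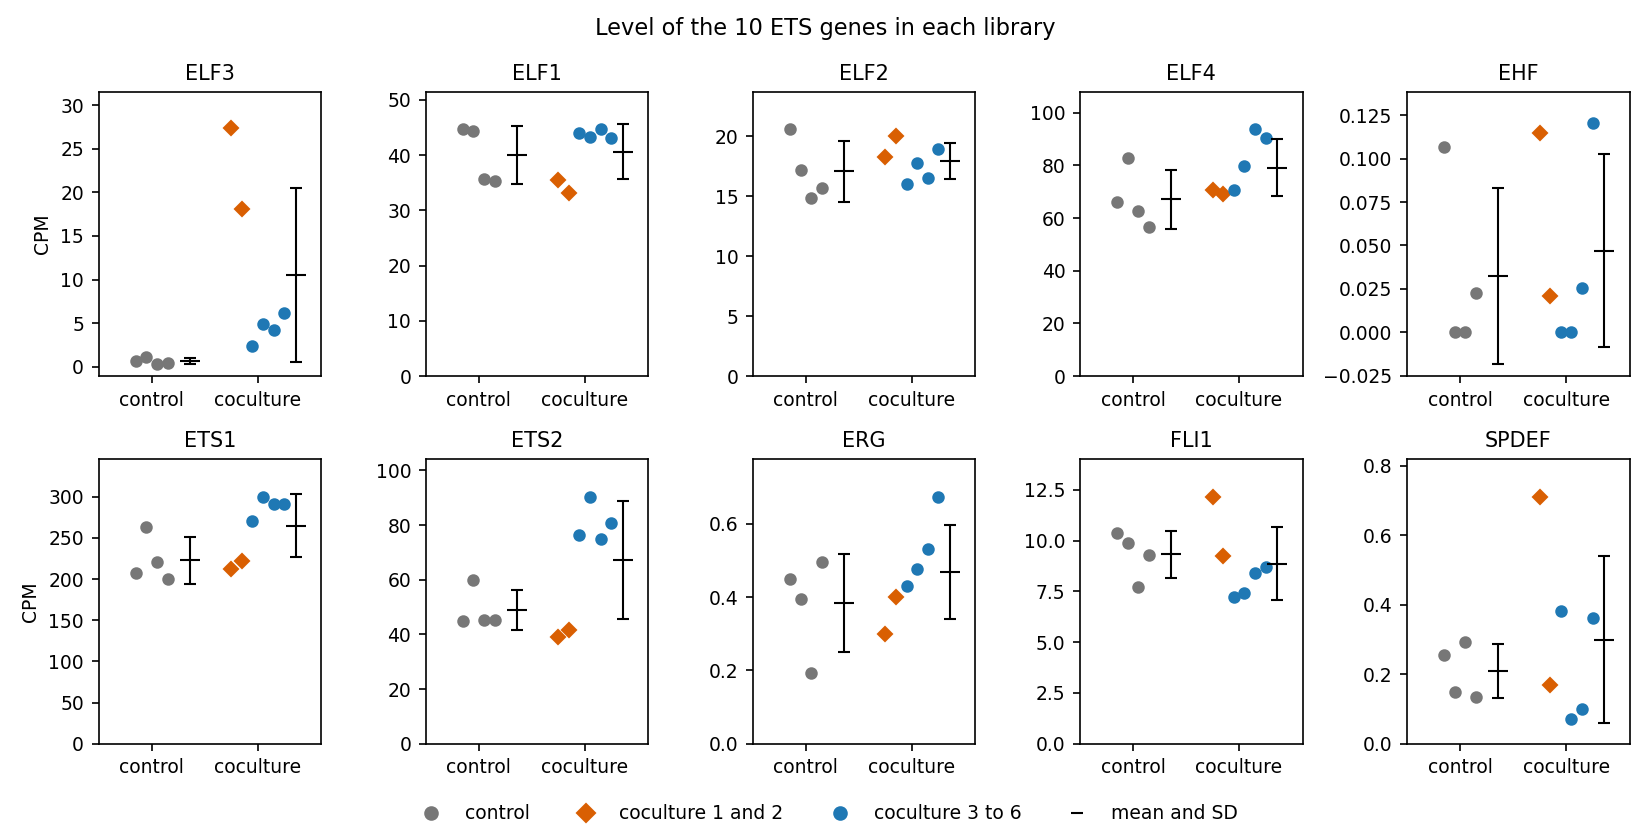
CPM of each of the 10 ETS genes (one panel each, own scale) in the 4 control and 6 coculture libraries, with the mean and SD of each group beside the points. ELF3 in coculture 1 and 2 stands at 27.4 and 18.1 CPM, while ETS2 in the same libraries stands at 39 and 41.5 CPM, under all controls.

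The other ELF genes, ELF1, ELF2 and ELF4, are widely expressed, and ELF4 is best known from lymphocytes and innate immunity. ELF4 was at 56.6 to 82.8 CPM in controls, and its coculture libraries ran from 69 to 93.7 CPM with a median of 75.2, so the groups overlapped (log2 fold change 0.24 ± 0.13, and 0.30 ± 0.12 without coculture 1 and 2). ELF1 was at 35.3 to 44.7 CPM in controls and at 33.1 to 44.7 CPM in coculture, with a median of 43.2. Its 2 lowest coculture libraries were 1 and 2, at 35.6 and 33.1 CPM, and the other 4 lay within 43.1 to 44.7 CPM.

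ELF2 was at 14.8 to 20.6 CPM in controls and 16 to 20.02 CPM in coculture, with a median of 18.03. The log2 fold changes were 0.02 ± 0.12 for ELF1 and 0.07 ± 0.12 for ELF2, and without coculture 1 and 2 they were 0.12 ± 0.096 and 0.0089 ± 0.12. The pseudogene row PPP1R14BP3 lies inside ELF2 on the same strand with 9523 counts over the 10 libraries, more than the 7573 of ELF2 itself, so reads of the 2 rows may not be fully parted.

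FLI1 and ERG, factors of blood and endothelial cells, had overlapping groups. FLI1 was at 10.4, 9.91, 7.71 and 9.31 CPM in controls and at 7.23 to 12.2 CPM in coculture, with a median of 8.55 (log2 fold change -0.07 ± 0.16, and -0.25 ± 0.13 without coculture 1 and 2). Coculture 1 held the highest FLI1 level of all libraries, and coculture 3 to 6 lay between 7.23 and 8.72 CPM. ERG was at 0.194 to 0.497 CPM in controls and 0.298 to 0.674 CPM in coculture, at 8 to 28 counts a library (log2 fold change 0.28 ± 0.34, and 0.44 ± 0.35 without coculture 1 and 2). Endothelial markers, of which 2 of 8 were tested, summed to 0.497 to 1.46 CPM in controls and 0.57 to 1.77 CPM in coculture. Lymphocyte markers, of which 0 of 8 were tested, summed to at most 0.0989 CPM in controls and 2.88 CPM in coculture. FLI1 lies 97669 bases from ETS1 on chromosome 11, and ERG lies 143261 bases from ETS2 on chromosome 21, in the deposited coordinates. Over the 10 libraries, ETS2 was lowest in coculture 1 and 2, while ERG was lowest in control 3, at 8 counts. Within coculture ERG, like ETS2, was lowest in libraries 1 and 2, at 0.298 and 0.4 CPM against 0.429 to 0.674 CPM. Of all genes tested, 29.9% had coculture 1 and 2 both below coculture 3 to 6. ETS1 was highest in coculture 4 while FLI1 was highest in coculture 1.

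EHF and SPDEF, the other epithelial members, were at few counts. EHF, or ESE-3, had a sum of 6 counts in the 4 controls and of 12 in the 6 coculture libraries, with 2 libraries of each group at 0 and at most 5 counts in any. A floor of 3 counts a library corresponds to 0.0632 to 0.0758 CPM, counting error alone, and no difference in EHF was detectable at this depth. SPDEF, known from secretory epithelia, was at 0.136 to 0.291 CPM in controls and 0.0713 to 0.711 CPM in coculture, with a median of 0.265 (log2 fold change 0.52 ± 0.59, and 0.13 ± 0.56 without coculture 1 and 2). Coculture 1 was the highest SPDEF library and coculture 4 the lowest, so the coculture libraries spanned the controls.

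Levels of different genes were compared per length, as CPM per kilobase of the length in the deposited table. In controls ELF4 led the 10 genes at 14.9 ± 2.48 CPM per kilobase (SD, n = 4), followed by ETS1 at 10.5 ± 1.34, ELF1 at 9.58 ± 1.26, ETS2 at 7.59 ± 1.13, ELF2 at 4.999 ± 0.745 and FLI1 at 2.25 ± 0.28. ELF3 followed at 0.192 ± 0.108, then SPDEF at 0.0797 ± 0.0298, ERG at 0.0748 ± 0.0259 and EHF at 0.00582 ± 0.00914. Ranges overlapped between ETS1 and ELF1, ELF1 and ETS2, ELF3 and SPDEF, and SPDEF and ERG, so those neighbours did not differ beyond the spread of the group. Within a library, ELF1 was above ETS2 in 4 of 4 controls, ETS1 above ELF1 in 3, ELF3 above SPDEF in 3 and SPDEF above ERG in 2.

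By mean, ELF3 stood at rank 16 of the 28 ETS genes in coculture, against rank 18 in controls. Its coculture mean was 3.24 ± 3.07 CPM per kilobase (n = 6). Within a library, ELF3 was above FLI1, the next of the 10 genes, in 2 of 6, coculture 1 and 2. Among the 10 genes its range overlapped those of ELF1, ETS2, ELF2 and FLI1. ETS2, at 10.4 ± 3.35, overlapped ETS1 and ELF1 as well as ELF3. The table lists 21245 bases for ETS1, the longest of the family, and no source used here says what this length covers. Without length scaling, ETS1 made up 20.5% of the summed ETS level in controls, against 4.85% per length.

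All 10 genes together made up 21.8% to 25.3% of the summed ETS level per length in controls, 23% and 22.3% in coculture 1 and 2, and 26.4% to 28.7% in coculture 3 to 6. ELF3 held 0.0868 ± 0.0428% of it in controls, 3.39% and 2.3% in coculture 1 and 2, and 0.34% to 0.785% in coculture 3 to 6. ETS2 held 3.51 ± 0.427% in controls, 2.44% and 2.66% in coculture 1 and 2, and 4.75% to 6.23% in the other 4. Per length, the largest shares in controls belonged to ELK3 at 17.4 ± 0.616% and ETV5 at 16.9 ± 1.4%, which are not among the 10, while without length scaling ETS1 had the largest.

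**Figure D2:**
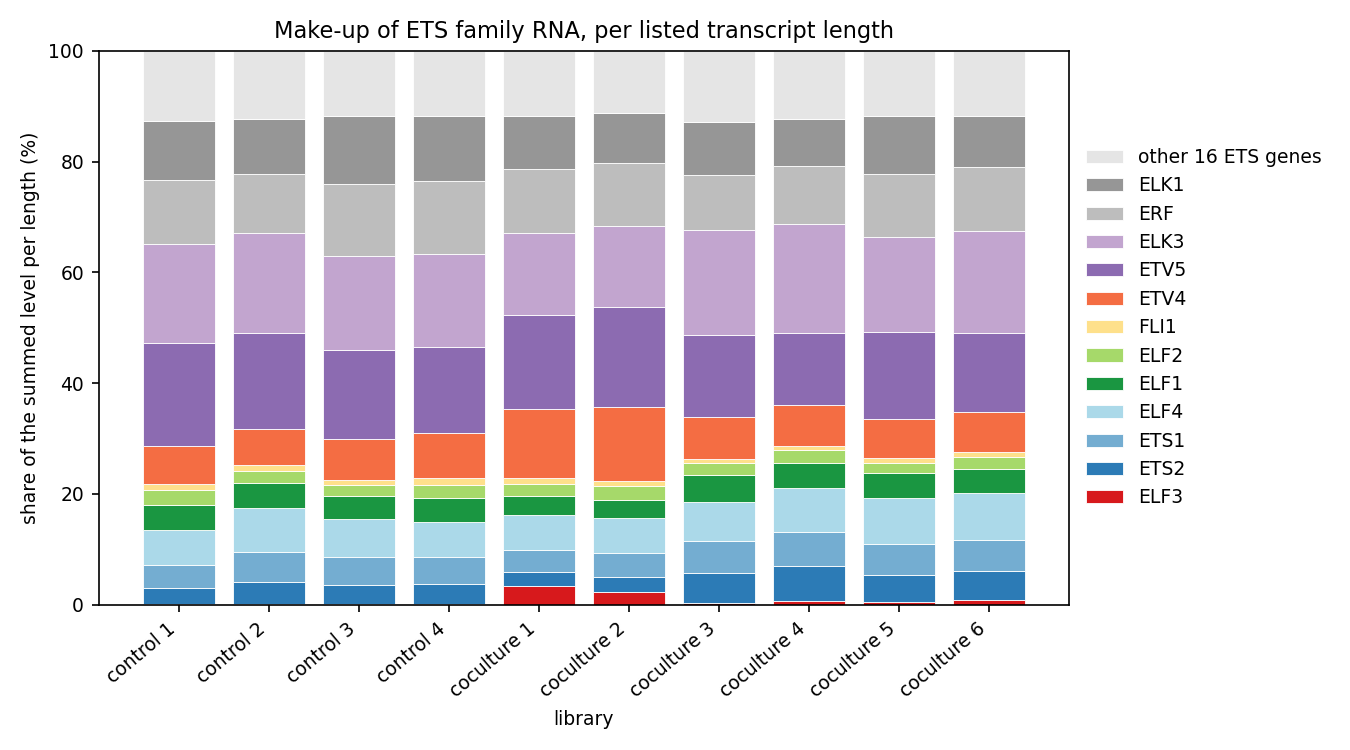
Share of each gene in the summed ETS level per length, in percent, for the 10 libraries, with 12 genes named and the other 16 pooled. ELF3 is visible mainly in coculture 1 and 2 (3.39% and 2.3%), where the share of ETS2 (2.44% and 2.66%) is under that of every control.

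The other 18 ETS genes were compared with edgeR's quasi-likelihood test, with p adjusted over all genes. SPI1, the PU.1 factor of myeloid and B cells, rose from 0.265 ± 0.148 CPM (n = 4) to 1.96 ± 0.98 (n = 6), a log2 fold change of 2.88 ± 0.49 (edgeR adjusted p = 0.00982), and all 6 coculture libraries lay above all controls. SPI1 was the 1 gene higher of 13 tested, with 0 lower and 12 not called. At an unadjusted p under 0.05, 3 were higher and 0 lower, and DESeq2 and limma-voom each called 1 higher and 0 lower. Over all genes tested, edgeR called 1.14% higher and 0.186% lower, and 1509 of 15629 were at an unadjusted p under 0.05. The median log2 fold change of the 13 was 0.11, beside 0.0082 over all genes. The SPI1 call was lost with the replicate number as a block (edgeR adjusted p = 0.0535).

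SPI1 did not follow ELF3 within coculture. Its levels were 1.33 and 0.842 CPM in coculture 1 and 2, the lowest of the group, and 1.67 to 3.61 CPM in coculture 3 to 6. In the same libraries edgeR called 11 of 12 tested leukocyte markers higher and 0 lower, beside 1.14% and 0.186% of all genes. CORO1A was not called. With the replicate block it called 7 higher. LYZ, the lysozyme of myeloid cells, was at 13.9 ± 2.17 against 0.086 ± 0.0783 CPM, ITGB2, a leukocyte integrin chain, at 11.2 ± 2.53 against 1.495 ± 0.263, CD14, a monocyte receptor, at 2.9 ± 1.22 against 0.0863 ± 0.0435, and ITGAM, CD11b, at 1.17 ± 0.47 against 0.0179 ± 0.012. LCP1, an actin bundler of leukocytes and many tumor cells and the most abundant of the list, was at 15.7 ± 3.69 against 6.2 ± 0.435 CPM. The part of these cells in the SPI1 difference was not tested.

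ETV4, a PEA3 factor induced by RAS-MAPK signaling, was not called (log2 fold change 0.50 ± 0.21, edgeR adjusted p = 0.473), though its groups did not overlap. It was at 36.4 to 39.5 CPM in controls, 75.1 and 79.4 CPM in coculture 1 and 2, and 40.1 to 42.3 CPM in coculture 3 to 6. Its difference therefore lay mostly in the pair of libraries where ELF3 was highest and ETS2 lowest. Without that pair, the log2 fold change of ETV4 was 0.11 ± 0.074.

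ETV6, a transcriptional repressor needed for hematopoiesis, was at 41.6 ± 6.53 against 32.7 ± 4.13 CPM (edgeR adjusted p = 0.358). ETV5 and ETV1, the other PEA3 factors, were at 151 ± 23.1 against 151 ± 25.8 CPM and 25.9 ± 3.99 against 23.6 ± 6.26 CPM. The ternary complex factors, which act with SRF, were at 175 ± 16.5 against 162 ± 20.4 CPM for ELK3, 69.4 ± 5.81 against 71.5 ± 11.9 for ELK4 and 65.3 ± 6.34 against 69.8 ± 3.28 for ELK1. The repressors ERF and ETV3 were at 72.4 ± 7.56 against 72.05 ± 3.22 CPM and 39.3 ± 4.22 against 42.9 ± 5.33 CPM. GABPA, which acts with GABPB1, was at 20.6 ± 2.63 against 18.7 ± 1.69 CPM. None of these was called by edgeR, DESeq2 or limma-voom. The other 7 each had a mean under 1 CPM in both groups. Among them SPIB, a B cell factor named here after its values were seen, held 63 counts (1.498 CPM) in coculture 4 and at most 0.206 CPM elsewhere, and in that library the lymphocyte markers summed to 2.88 CPM, their highest.

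**Figure D3:**
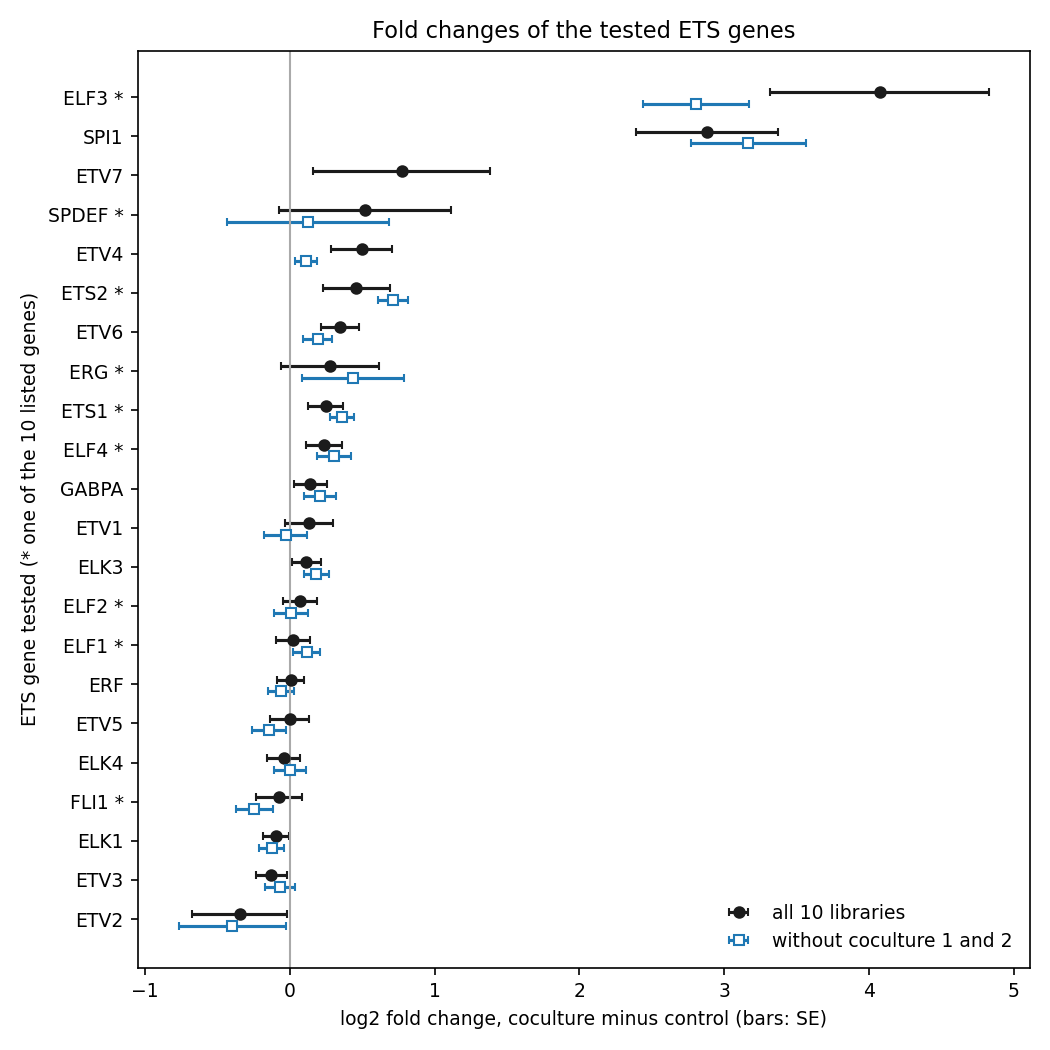
Log2 fold change of coculture minus control with its SE, for the 22 ETS genes tested, over all 10 libraries (filled circles) and without coculture 1 and 2 (open squares; ETV7 was not tested there). ELF3 moves from 4.07 to 2.81 and ETS2 from 0.46 to 0.71, while SPI1 stays near 3, at 2.88 and 3.17.

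The genes whose pattern over the 10 libraries was most like that of ELF3 were named by Pearson's r of log2 CPM, among 10372 tested genes with a mean of at least 5 CPM in coculture. NFKB2, the p100 precursor of an NF-kB subunit, came first with r = 0.991. It was followed by ICAM1, an adhesion molecule for leukocytes (0.985), UNC5B, a netrin receptor (0.984), C1QTNF1, a secreted C1q-like protein (0.982), and EFHD2, a calcium-binding protein (0.979). These values have no p, and the genes share libraries and depth with ELF3.

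NFKB2 held 261.8 and 252.2 CPM in coculture 1 and 2, 159 to 183 CPM in coculture 3 to 6 and 90.2 to 109.6 CPM in controls, so the same 2 libraries led as for ELF3, over a narrower span. Since coculture 1 and 2 stood apart, r was also taken over the other 8 libraries, where it was 0.982 for NFKB2, 0.987 for ICAM1, 0.969 for UNC5B, 0.977 for C1QTNF1 and 0.96 for EFHD2, at ranks 8 (ICAM1) to 44 (EFHD2). Over the 6 coculture libraries r was 0.975 for NFKB2, 0.955 for ICAM1, 0.976 for UNC5B, 0.935 for C1QTNF1 and 0.919 for EFHD2, at ranks 141 (UNC5B) to 1143 (EFHD2). For ETS2, r with ELF3 was 0.0766 over the 10 libraries, 0.963 over those 8 and -0.898 over the 6 coculture libraries. For ETS1 these values were 0.263, 0.936 and -0.855.

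**Figure D4:**
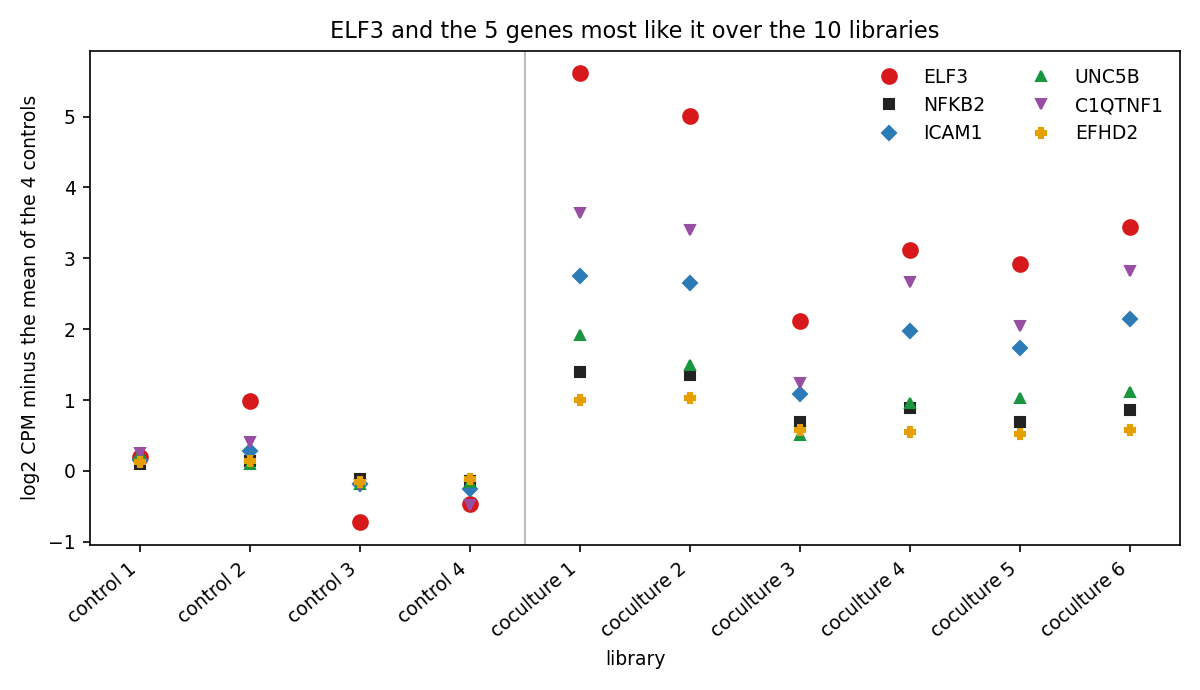
Log2 CPM minus the mean of the 4 controls for ELF3 and the 5 genes most like it, by library. In all 6 genes coculture 1 and 2 stand highest and control 3 and 4 lowest, and ELF3 spans the widest range, from 0.34 to 27.4 CPM.

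Over the 6 coculture libraries alone, the genes most like ELF3 included MOB2, a kinase regulator, TXNRD3, a thioredoxin reductase, TMEM65, a mitochondrial membrane protein, and THEMIS2, a signaling adaptor of immune cells (each r = 0.996). Over all 10 libraries their r ran from 0.562 for MOB2 to 0.912 for TMEM65, and none of these 4 was among the 5 genes most like ELF3 there. None of the 4 was called between the groups by edgeR (adjusted p from 0.336 for TMEM65 to 0.867 for MOB2).

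Genes of interleukin 1, tumor necrosis factor and NF-kB signaling, which lie upstream of ELF3 in many epithelia, were higher for 5 of 11 tested, with 0 lower and 6 not called. At an unadjusted p under 0.05, 7 were higher and 0 lower, and DESeq2 and limma-voom called 6 and 5 higher and 0 lower. Of all genes tested, edgeR called 1.14% higher and 0.186% lower, and 1509 of 15629 were at an unadjusted p under 0.05. RELB, a noncanonical NF-kB subunit, was higher at 99.3 ± 7.42 CPM against 43.6 ± 5.63 in controls (edgeR adjusted p = 8.44e-05). IL1B, an inflammatory cytokine also made by myeloid cells, was higher at 21.9 ± 9.44 against 0.352 ± 0.268 CPM (edgeR adjusted p = 0.000103). NFKBIA, the inhibitor IkB alpha, rose from 37.6 ± 11.5 to 120 ± 31.8 CPM (edgeR adjusted p = 0.00145). NFKB2, again, was higher (edgeR adjusted p = 0.00548). The median log2 fold change of the 11 was 0.36. When coculture 1 and 2 were left out, 6 were higher, NFKB1 being added, and the median was 0.39. IL1B was highest in coculture 1 at 34.4 CPM, yet coculture 6 followed at 30.8 CPM, where ELF3 was at 6.12 CPM, so the orders of IL1B and ELF3 differed. TNF itself was listed at 0 in every library, as was AIF1, which also lies on chromosome 6. Whether reads of these genes reached the deposited counts was not tested.

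Reported ELF3 targets were mostly below the filter on low counts: of 13, 4 were tested, 0 were higher, 1 was lower and 3 not called, with a median log2 fold change of 0.12. DESeq2 and limma-voom also called 0 higher and 1 lower, and 1 was higher at an unadjusted p under 0.05. Beside this, edgeR called 1.14% of all genes higher and 0.186% lower. FLG, the epidermal protein filaggrin, fell from 16.8 ± 6.13 to 6.17 ± 2.49 CPM (log2 fold change -1.45 ± 0.29, edgeR adjusted p = 0.0286), and the groups did not overlap. An antisense row, FLG-AS1, overlaps it. That call was lost without control 1 or 2 or coculture 2, 3, 4 or 6 (edgeR adjusted p up to 0.108) and with no filter (0.0634). With coculture 1 and 2 both left out, FLG was again the 1 gene called of 4 tested, and the median was -0.055, against 0.12 over all libraries.

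PTGS2, the inducible cyclooxygenase, was at 5.38 ± 1.4 against 3.23 ± 1.34 CPM (edgeR adjusted p = 0.394), TGFBR2, a TGF-beta receptor, at 309 ± 55.1 against 273 ± 74.4 CPM, and ANGPT1, angiopoietin 1, at 0.385 ± 0.1 against 0.368 ± 0.0862 CPM, none of them called. SPRR1B, SPRR2A and SPRR3, cornified envelope genes, were at 0 in every library. CLDN7, a claudin that ELF3 is known to activate, was below the filter, with 54 counts over 6 coculture and 6 over 4 control libraries. It is named here after its values were seen: each coculture library, at 0.0758 to 0.367 CPM, lay above each control, at 0 to 0.0678 CPM, levels near the floor of 3 counts. NOS2, the inducible nitric oxide synthase and another target below the filter, was at 0.0774 ± 0.0511 against 0.11 ± 0.0809 CPM, with overlapping groups.

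None of the other epithelial transcription and splicing factors tested was called, where edgeR called 1.14% of all genes higher and 0.186% lower. Of 12, 6 were tested and 0 called by edgeR, DESeq2 or limma-voom (0 higher and 1 lower at an unadjusted p under 0.05; median log2 fold change -0.014). That gene, TFAP2C, an AP-2 factor, was at 19.3 ± 2.86 against 25.4 ± 2.58 CPM without overlap (edgeR adjusted p = 0.238), and TFAP2A, its relative, at 23.2 ± 3.31 against 27.3 ± 2.14 CPM. KLF5, a Kruppel-like factor, was at 12.2 ± 5.35 against 8.25 ± 4.82 CPM, and GRHL1, a grainyhead factor, at 3.22 ± 1.42 against 4.07 ± 2.04 CPM. Like ETS2, KLF5 was highest among controls in control 2 and low in coculture 1 and 2, with 5.69 to 15.5 CPM in controls, 6.19 and 5.52 CPM in coculture 1 and 2, and 12.6 to 18.8 CPM in coculture 3 to 6. GRHL2, OVOL1 and OVOL2 were at 0 in every library. GRHL3, below the filter and named here after its values were seen, held 39 counts in coculture and 5 in controls. Each coculture library, at 0.0688 to 0.241 CPM, lay above each control, at 0 to 0.0485 CPM, levels near the floor of 3 counts.

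Of 10 ETS partner proteins, 10 were tested and 0 called by edgeR, DESeq2 or limma-voom, also 0 at an unadjusted p under 0.05, with a median log2 fold change of -0.11. Over all genes tested, edgeR called 1.14% higher and 0.186% lower, so 0 calls in so short a list is near that share. On the other 8 libraries, 0 were called and the median was -0.0077. RUNX2, a runt factor, was at 44.6 ± 8.43 against 52.9 ± 2.69 CPM, and CREBBP, a coactivator, at 109 ± 28.9 against 133 ± 27.7 CPM. JUN and FOSL1, AP-1 subunits that bind beside ETS factors, were at 246 ± 21.3 against 266 ± 24.3 CPM and 533 ± 24.7 against 571 ± 77.6 CPM.

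RAS-MAPK output genes, 12 of 13 tested, had 0 called by edgeR, where 1.14% of all genes were higher and 0.186% lower. Their median log2 fold change was 0.0047. Without coculture 1 and 2, 0 were called and the median was -0.12. At an unadjusted p under 0.05, 1 was higher and 1 lower, while DESeq2 called 1 lower, the cyclin CCND1, and limma-voom 0. CCND1 was at 768 ± 73.3 against 940.1 ± 43.7 CPM (edgeR adjusted p = 0.163). DUSP5, an ERK phosphatase, was at 167 ± 39.2 against 121 ± 10.5 CPM, PHLDA1, a pleckstrin-like protein, at 578 ± 161 against 475 ± 90.2 CPM, and SPRY4, a Sprouty inhibitor, at 53.9 ± 6.18 against 59.3 ± 7.93 CPM.

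Of these 12 genes, 7 had coculture 1 and 2 both above coculture 3 to 6, and 2 had both below, beside the 30.5% and 29.9% of all genes. Those below were SPRED1 and SPRED2, with means of 42.1 and 57.1 CPM in coculture 1 and 2. In coculture 3 to 6, SPRED1 was at 45.8 to 54.2 CPM and SPRED2 at 62.7 to 78 CPM. They and the following 5 are named after their values were seen. DUSP6, an ERK phosphatase, was at 87.5 and 107 CPM in coculture 1 and 2, 41.04 to 53.9 CPM in coculture 3 to 6 and 48.7 to 74.9 CPM in controls. PHLDA1 was at 778 and 779 CPM, 393 to 511 CPM and 375 to 594 CPM in the same order. In DUSP5, DUSP4, a nuclear phosphatase, and SPRY1, a Sprouty inhibitor, as in DUSP6 and PHLDA1, the pair of libraries where ELF3 was highest lay above every other library. DUSP5 was at 215 CPM in both and at most 157 CPM elsewhere, SPRY1 at 10.4 and 10.2 CPM and at most 8.27 CPM elsewhere, and DUSP4 at 6.56 and 6.001 CPM and at most 4.49 CPM elsewhere.

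Protease genes that ETS factors are known to drive were listed together with PLAUR, a protease receptor, and TIMP1, a protease inhibitor. Among the 6 genes tested from these, edgeR called 2 higher and 0 lower and left 4 uncalled, TIMP1 among them. Their median log2 fold change was 1.02. At an unadjusted p under 0.05, 3 were higher and 0 lower, and DESeq2 and limma-voom called 3 and 2 higher and 0 lower. The edgeR shares over all genes tested were 1.14% higher and 0.186% lower. MMP9, a gelatinase stored in neutrophil granules and made by tumor cells too, was higher at 15.5 ± 4.92 CPM against 1.21 ± 0.378 in controls (edgeR adjusted p = 8.44e-05). MMP1, a collagenase, was higher at 40.8 ± 18.2 against 11.7 ± 0.599 CPM (edgeR adjusted p = 0.00393). MMP3, stromelysin, was at 1.25 ± 1.06 against 0.279 ± 0.152 CPM (edgeR adjusted p = 0.194), and PLAUR, the urokinase receptor, at 204 ± 28.5 against 178 ± 20.3 CPM. MMP9 was at 21.1 and 15.2 CPM in coculture 1 and 2 and 9.85 to 21.3 CPM in coculture 3 to 6, so it did not separate these libraries as ELF3 did. MMP3 was higher as well without coculture 1 and 2 (edgeR adjusted p = 0.027), and the median of the 6 was 0.996.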

How the data were processed

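Gene expression was measured by RNA-seq in 6 coculture and 4 control libraries of TPC-1 cells. The authors deposited raw read counts per gene symbol. HISAT2 2.0.4, BWA and build GRCh38.p10 are named in the submitters' processing notes, with no role given, while counting tool, annotation and strand are each not given in the sources used here. A length in bases stands beside each gene in the deposited table, and 0 of its sample columns were left unused. The mature miRNA table was not used here.

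Differences were tested in edgeR 4.0.16 under R 4.3.3 (filterByExpr by group, TMM, robust glmQLFit and glmQLFTest), with Benjamini-Hochberg adjustment over all 15629 genes tested at a threshold of 0.05. The SE is the size of the log2 fold change divided by the square root of F. CPM uses the TMM library sizes, and likeness uses log2 CPM with a prior count of 2. Library totals and floors stand in the report, and floors cover counting error only. No pair of libraries within a group agreed within sampling noise (chi-square per degree of freedom at least 6.86). Pairs across the groups were not compared in this way. The fit was tested on simulated counts.

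The members, lists and rules were chosen with earlier results of these data known. Named were the 10 genes, the other ETS genes at 1 CPM or more or past the threshold, up to 4 genes of each list by adjusted p, the most abundant gene of each marker list, and the 5 genes most like ELF3. Alternatives were DESeq2 1.42.0, limma-voom (limma 3.58.1), RLE and upper-quartile scaling, no filter, a replicate block and leaving out libraries. CLDN7, CORO1A, NOS2, SPIB, DUSP4, DUSP6, SPRY1, SPRED1, SPRED2, GRHL3 and TIMP1 lie outside that rule. Values of 2 genes are not reported here.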

Additional observations from a re-analysis of the deposited data

Results flagged for a closer look

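Among 76 named genes, each group of 4 or 6 libraries was searched for a library far from the rest of its group, 152 groups in all. Chance flags about 1 in 20 such groups, or 7.6 here, and 14 were found. Some of these genes, such as SPIB, DUSP4 and DUSP6, were named after their values were seen, and some flags lie near the floor. Nothing is therefore read from the excess.

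Among the ETS genes this was the case for ETS2 in control 2, at 59.8 CPM against 44.9 to 45.3 CPM in the other controls. In the same library KLF5 was at 15.5 CPM against 5.69 to 6.11 CPM, and NFKBIA at 54.8 CPM against 29.7 to 33.2 CPM. Also in control 2, DUSP4 was at 2.27 CPM against 4.17 to 4.49 CPM, and in control 1, DUSP6 was at 74.9 CPM against 48.7 to 52.97 CPM. Coculture 4 stood apart for the B cell ETS gene SPIB at 1.498 CPM (others 0.0211 to 0.206 CPM), for NFKBIA at 182 CPM (others 96.5 to 117 CPM), for MMP1 at 75.5 CPM (others 25.9 to 43.4 CPM) and for the B cell gene CD79A at 1.02 CPM (others at most 0.161 CPM). Coculture 2 held 9.79 CPM of LYZ (others 13.7 to 15.8 CPM), and coculture 1 held 1.05 CPM of the endothelial gene PECAM1 (others 0.214 to 0.501 CPM). Near the floor, LYZ was at 0.203 CPM in control 4 (others up to 0.0494 CPM), CD79A was at 0 in control 3 (others 0.0855 to 0.0989 CPM) and ITGAM was at 0 in control 1 (others 0.0226 to 0.0247 CPM).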

How the results depend on the processing

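ELF3 kept a positive fold change under every alternative run. This is no support, since ELF3 was chosen for its difference and its groups did not overlap. Without coculture 1 and 2 the log2 fold change of ELF3 was 2.81. In that fit 3 of the 10 ETS genes were higher, against 1 over all libraries, a description of genes chosen with results known. Over all genes 210 were then higher, against 178, and 112 lower, against 29. With no filter or with limma-voom, 0 of the 10 were higher, and with no filter 0 ELF3 targets were lower. DESeq2 called 333 genes higher and 106 lower, and 1 RAS-MAPK gene lower. The deviations of same-numbered libraries had r of 0.35, -0.0825, 0.201 and 0.137, and 2 of 4 coculture libraries correlated best with the control of their number. The labels name no shared batch, so the numbers were not taken as a pairing. With the replicate block 100 genes were higher and 10 lower, with 0 other ETS genes and 7 leukocyte markers higher. On leaving out each library in turn, the number higher over all genes ran from 112 without control 4 (114 without control 3) to 204, and the number lower from 4 without control 4 to 36, the number of the 10 higher from 0 to 1, and the number of ELF3 targets lower from 0 to 1. Without length scaling, the share of the ETS level in controls was 3.67% for ELF1, 1.57% for ELF2, 20.5% for ETS1, 4.49% for ETS2, 0.859% for FLI1 and 0.0192% for SPDEF. The cause of these shifts was not tested. At 14 to 45 control counts a library ELF3 was above the floor of 3 counts, while EHF had at most 5 counts.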
